A study of Homo sapiens with 6 samples.

Results

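The genes for CTCF and the cohesin machinery were examined in ATAC-seq data from MCF10A cells, a non-tumorigenic human mammary epithelial cell line. The set held 10 genes chosen by name, CTCF, CTCFL, ZNF143, RAD21, SMC1A, SMC3, STAG1, STAG2, NIPBL and WAPL, out of 20007 protein-coding genes in the GENCODE annotation. For each gene, every open region was taken that touched the gene body or the 10 kb on either side of it.

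All cells were wild-type MCF10A and were held in phosphate-free HEPES-buffered Hanks solution for 30 min before treatment. They then received no treatment (Ctrl), 50 μM tris(2-pyridylmethyl)amine (TPA), a chelator that lowers labile Zn2+, or 30 μM ZnCl2, each for 30 min. Each group had 2 libraries. The study text calls the replicates biological in one place and technical in another, so the p-values below measure only the spread between these libraries, and a single cell line limits the data to that line.

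CTCF is a zinc-finger protein that binds DNA at insulators and at the anchors of chromatin loops. Cohesin is a ring built from SMC1A, SMC3 and the kleisin subunit RAD21, with STAG1 or STAG2 attached; NIPBL loads and drives the ring, WAPL releases it, and the ring extrudes loops until it meets CTCF. CTCFL is a testis paralogue of CTCF, and ZNF143 is a zinc-finger activator that binds many promoters. The measurements below concern the chromatin of the genes that encode these proteins, not binding by the proteins.

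Promoters of 9 of the 10 genes were found in the RefSeq promoter table for GRCh38.p14, which holds 35116 promoters of 300 bp, each with 250 bp before the start site and 50 bp after it. The 3 shown here belong to the member whose rank differed between TPA and each of the other groups (CTCF), its paralogue without any open region (CTCFL), and a ring subunit whose rank differed between TPA and ZnCl2 (SMC3). They lie at chr16:67562276-67562575 on the plus strand, chr20:57525091-57525390 on the minus strand and chr10:110567445-110567744 on the plus strand, each is written along its gene, and the capitals mark CpG dinucleotides.
CTCF: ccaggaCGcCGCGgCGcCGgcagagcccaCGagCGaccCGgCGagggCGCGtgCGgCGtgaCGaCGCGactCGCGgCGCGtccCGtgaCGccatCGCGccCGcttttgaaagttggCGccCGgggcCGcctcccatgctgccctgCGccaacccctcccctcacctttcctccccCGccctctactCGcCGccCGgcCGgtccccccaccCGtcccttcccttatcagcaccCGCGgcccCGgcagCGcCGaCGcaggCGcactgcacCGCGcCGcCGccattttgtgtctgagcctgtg
CTCFL: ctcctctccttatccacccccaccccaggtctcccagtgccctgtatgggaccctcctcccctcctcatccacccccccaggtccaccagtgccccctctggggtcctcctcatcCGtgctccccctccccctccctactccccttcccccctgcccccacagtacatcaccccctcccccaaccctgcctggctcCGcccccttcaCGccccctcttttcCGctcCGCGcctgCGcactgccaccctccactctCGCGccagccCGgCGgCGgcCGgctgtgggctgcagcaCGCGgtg
SMC3: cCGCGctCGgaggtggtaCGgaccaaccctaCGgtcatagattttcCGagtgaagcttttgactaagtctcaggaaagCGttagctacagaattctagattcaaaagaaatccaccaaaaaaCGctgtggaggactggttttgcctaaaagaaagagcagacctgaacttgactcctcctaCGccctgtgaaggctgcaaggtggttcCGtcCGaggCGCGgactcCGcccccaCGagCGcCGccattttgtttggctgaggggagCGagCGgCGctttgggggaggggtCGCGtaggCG

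The CTCF promoter held 46 CpG dinucleotides, the SMC3 promoter 23 and the CTCFL promoter 15, against a median of 14 over all promoters and 30 over the 9 matched members. GC content was 75.3% for CTCF, 71.7% for CTCFL and 56% for SMC3, against a median of 58.7% over all promoters. The CTCF and CTCFL promoters were thus alike in GC content and far apart in CpG count, with most CpGs of CTCFL in the last part of the window, near its start site. The letters CCNNNAGNNGGC, a core of the CTCF motif, were searched on both strands and were present in the promoters of CTCFL, STAG1, STAG2 and NIPBL, that is 4 of 9, and in 10.6% of all promoters. The STAG2 promoter was taken at a start site 352 bp after the canonical one used below for openness. That later start was covered by an open region only in Ctrl replicate 2 and ZnCl2 replicate 1. The letters ACTACAA, a core of the ZNF143 motif, were present in 1 of 9, that of WAPL, and in 2.77% of all promoters.

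The open regions were called separately in each library, and their number ran from 18887 in ZnCl2 replicate 2 through 25031 in Ctrl replicate 1, 35902 in TPA replicate 1, 38069 in ZnCl2 replicate 1 and 41376 in TPA replicate 2 to 44641 in Ctrl replicate 2. Each region has a whole-number score that is not comparable between libraries, so it was read as the percentage of regions in the same list with a lower score. The lists hold no read counts, and the depth behind each score is unknown. The epithelial identity of the cells was checked at start sites: KRT18 and ITGB4 were open in all 6 libraries, KRT5 in 5, KRT14 and EPCAM in 4, CDH1 and KRT8 in 3, and TP63 in 0 at its canonical start. That is 2 of 8 markers (25%) open in all 6 libraries and 1 of 8 in none, where all protein-coding genes had 43.0% and 36.8%. KRT8 was open in both Ctrl and neither TPA library, as were 0.560% of all genes, and CDH1 in both TPA and neither Ctrl library, as were 0.245%. The KRT8 region exceeded 9.08% and 36.0% of the Ctrl lists, and the CDH1 region 30.8% and 98.6% of the TPA lists. Both genes were open in ZnCl2 replicate 1 and not in ZnCl2 replicate 2, and these 2 markers were picked out after their values were seen. None of the 3 immune, 2 endothelial and 3 germ cell markers was open in any library.

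The start sites of the members were open more often than those of all genes. In order of replicate, 8 and 9 of the 10 were open in the Ctrl libraries, 9 and 9 in TPA, and 9 and 8 in ZnCl2. Over all protein-coding genes the share with an open start site was 50.6% and 60.9% in Ctrl, 54.5% and 56.6% in TPA, and 59.6% and 46.3% in ZnCl2. Open in all 6 libraries were 8 of 10 members (80%) and 8610 genes in all (43.0%), and open in none were 1 of 10 members, CTCFL, and 36.8% of all genes. The median percentile of the members' open start sites lay above that of all open start sites in each library, by the least in ZnCl2 replicate 1 (83.4% against 77.4%) and by the most in TPA replicate 2 (90.4% against 74.7%).

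**Figure D1:**
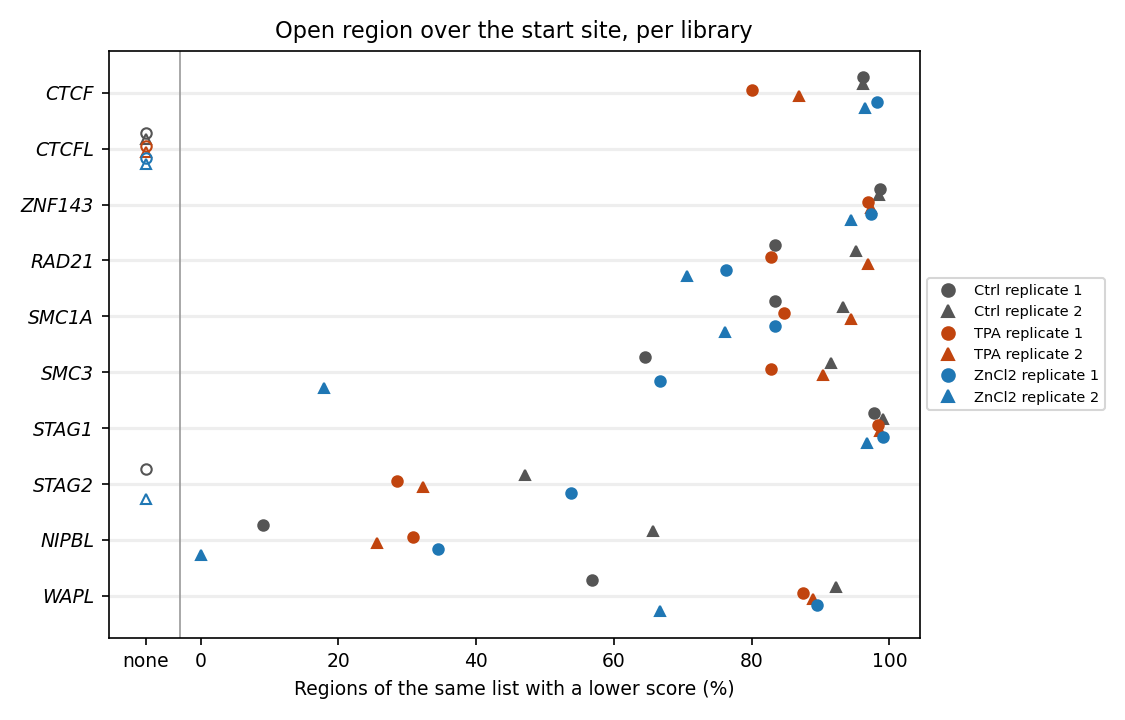
Percentage of regions in the same list with a lower score (horizontal axis) for the region over the start site of each member (vertical axis), 1 point per library, coloured by treatment, with circles for replicate 1 and triangles for replicate 2; open symbols at "none" are libraries with no region over the start site. CTCF in TPA (80.0% and 86.9%) lies left of its other points, and CTCFL has no region in any of the 6 libraries.

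CTCF was the 1 member whose start-site region ranked lower in TPA than in both other groups by the test across all genes. Its gene spans chr16:67562467-67639177, and the region over its start site had scores of 98 and 152 in Ctrl, 77 and 91 in TPA, and 181 and 113 in ZnCl2. These scores exceeded 96.2% and 96.1% of the regions of the Ctrl lists, 80.0% and 86.9% of the TPA lists, and 98.2% and 96.5% of the ZnCl2 lists. Both TPA libraries were lower than every other library, and both ZnCl2 libraries were higher than both Ctrl libraries. The latter order was narrow, with 96.5% in ZnCl2 replicate 2 and 96.2% in Ctrl replicate 1. TPA was lower than Ctrl without overlap at 23.8% of the 8610 genes tested and lower than ZnCl2 at 17.8%, and ZnCl2 was higher than Ctrl without overlap at 2.54%. The share of genes with these orders together was not counted.

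The score was also ranked only among the start-site regions of the 8610 genes, a value called here the promoter rank. The promoter rank of CTCF was 89.0% ± 5.04 (SD, n = 2) in Ctrl, 59.3% ± 5.89 in TPA and 95.0% ± 0.345 in ZnCl2. By limma with Benjamini-Hochberg adjustment over 8610 genes, it was lower in TPA than in Ctrl (-29.8 percentile points, SE 4.67, adjusted p = 0.0246) and lower in TPA than in ZnCl2 (-35.8 points, SE 4.67, adjusted p = 0.0125). It did not pass the test between ZnCl2 and Ctrl (limma, difference 6.00 points, 95% interval -4.58 to 16.6, adjusted p = 0.675), and this difference ran from 2.44 points without Ctrl replicate 2 to 9.44 points without Ctrl replicate 1. Of all genes tested, 2.01% were lower and 0.523% higher in TPA than in Ctrl, 6.30% lower and 4.31% higher in TPA than in ZnCl2, and 0% in either direction between ZnCl2 and Ctrl. The lower rank in TPA than in Ctrl was no longer called by limma without Ctrl replicate 1 (adjusted p = 0.152), Ctrl replicate 2 (0.114), ZnCl2 replicate 1 (0.106) or ZnCl2 replicate 2 (0.0891), nor without the mean-variance trend (0.0660), although with any one library left out the difference stayed between -33.8 and -25.4 points. The difference between TPA and ZnCl2 was no longer called without ZnCl2 replicate 1 (limma, adjusted p = 0.0846) or ZnCl2 replicate 2 (0.0948). In whole-list percentile, limma gave -12.7 points in TPA relative to Ctrl (SE 3.17, adjusted p = 0.0215) and -13.9 points relative to ZnCl2 (adjusted p = 0.00485). That fit had 25830 degrees of freedom, against 8.91 for the promoter rank. Its p-values therefore used the spread of the mean-variance trend over all genes, not the spread of CTCF itself.

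The width of the CTCF region did not separate TPA from ZnCl2. It was 2940 and 3440 bp wide in Ctrl, 2920 and 2820 bp in TPA, and 2280 and 3300 bp in ZnCl2, so that TPA was narrower than Ctrl without overlap by as little as 20 bp, an order seen at 16.7% of all genes, and lay inside the range of ZnCl2. Merged over the libraries it covered chr16:67561171-67564780, which also holds the start of the divergent lncRNA CTCF-DT. A second region in the upstream flank, chr16:67555431-67556680, was called in Ctrl replicate 2 and TPA replicate 2 only, with scores above 14.6% and 9.73% of those lists. The genes outside the lists whose start-site percentiles were most like those of CTCF over the 6 libraries were MAGI3, CHCHD3 and PPM1L, with mean absolute differences of 1.21, 1.24 and 1.66 points. In TPA the start-site regions of MAGI3 exceeded 83.6% and 86.9% of their lists, those of CHCHD3 77.7% and 84.9%, and those of PPM1L 82.1% and 87.9%; these genes were picked for this likeness.

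CTCFL, at chr20:57495966-57525652, had no open region in its body or in the 10 kb on either side in any of the 6 libraries. The CTCF motif core in its printed promoter begins 159 bp before the start site and again 23 bp after it, both on the strand opposite to the gene. Its sole protein-coding neighbour within that distance is HMGB1P1.

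ZNF143, at chr11:9460319-9528524, had one of the highest start-site regions of the set. Its scores exceeded 98.6% and 98.5% of the regions in Ctrl, 96.8% and 97.4% in TPA, and 97.3% and 94.4% in ZnCl2. Both treated groups lay below Ctrl without overlap, by a few points. The promoter rank was 96.6% ± 1.96 (SD, n = 2) in Ctrl, 92.7% ± 0.435 in TPA and 91.4% ± 0.657 in ZnCl2, and neither difference passed limma's test (adjusted p = 0.292 for TPA and 0.382 for ZnCl2 against Ctrl). TPA was lower than Ctrl without overlap at 23.8% of all genes tested, and ZnCl2 at 13.3%. A further region inside a ZNF143 intron, chr11:9506511-9507480, was called in ZnCl2 replicate 1 only.

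**Figure D2:**
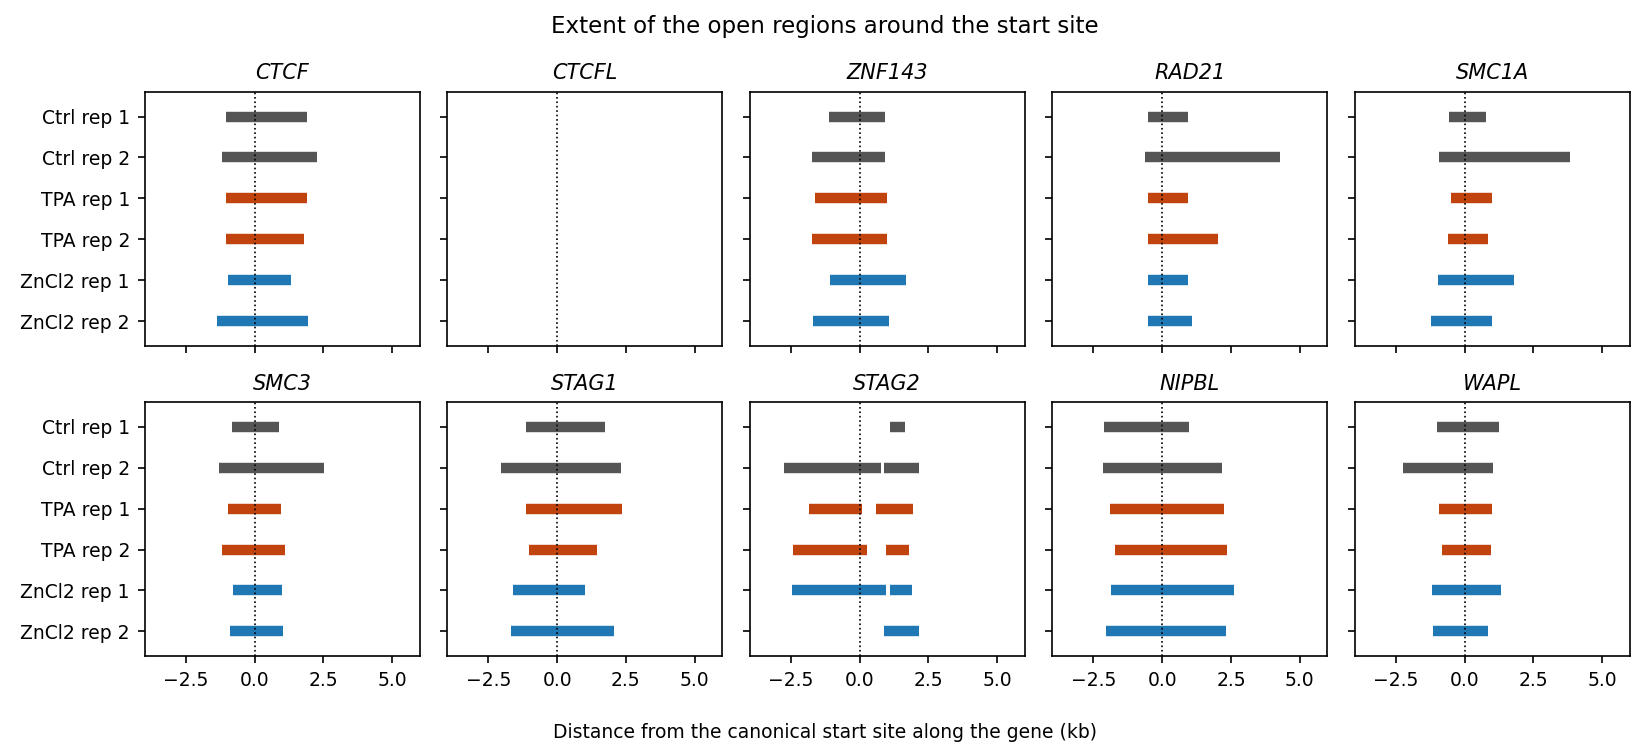
Extent of each open region near the canonical start site of each member (horizontal axis, kb along the gene, negative before the start; vertical axis, libraries), coloured by treatment. The Ctrl replicate 2 regions of RAD21 (4890 bp) and SMC1A (4770 bp) reach far into the gene, CTCFL is empty, and STAG2 lacks a region over its start in Ctrl replicate 1 and ZnCl2 replicate 2.

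Among the subunits of the ring, SMC3 varied most. SMC3, at chr10:110567684-110606048, is the ATPase subunit whose acetylation locks cohesin on DNA. The region over its start exceeded 64.4% and 91.5% of the regions in Ctrl, 82.9% and 90.4% in TPA, and 66.6% and 17.9% in ZnCl2. The TPA libraries were close to each other, whereas the Ctrl libraries bracketed TPA and ZnCl2 replicate 2 was far below the rest. The promoter rank was 52.1% ± 21.3 (SD, n = 2) in Ctrl, 66.3% ± 7.86 in TPA and 11.9% ± 5.24 in ZnCl2. It was 54.5 points higher in TPA than in ZnCl2 by limma (SE 12.2, 95% interval 26.7 to 82.2, adjusted p = 0.0294), while the differences of ZnCl2 from Ctrl (-40.2 points, limma, adjusted p = 0.299) and of TPA from Ctrl (14.3 points, limma, adjusted p = 0.553) did not pass. Leaving out 1 library moved the difference of ZnCl2 from Ctrl to -54.8 points (without Ctrl replicate 1) and -25.2 points (without Ctrl replicate 2), and that of TPA from Ctrl to -0.752 and 29.3 points.

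The SMC3 call rested on each of the 4 libraries compared. The limma adjusted p was 0.0723 without TPA replicate 1, 0.130 without TPA replicate 2, 0.120 without ZnCl2 replicate 1 and 0.152 without ZnCl2 replicate 2, with differences of 46.6 to 59.9 points. It was also not called when the percentile in the whole list replaced the promoter rank (44.4 points, limma, adjusted p = 0.222). Between 1720 and 2300 bp, the width of the region overlapped between groups except for the 3810 bp of Ctrl replicate 2, the library with the most regions.

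SMC1A, at chrX:53374149-53422728, is the other ATPase of the ring and shares its open region with the start of RIBC1, a coding gene on the opposite strand. Its region exceeded 83.3% and 93.2% of the regions in Ctrl, 84.7% and 94.4% in TPA, and 83.4% and 76.1% in ZnCl2. Both TPA libraries were above both ZnCl2 libraries, an order seen at 21.5% of all genes, and overlapped Ctrl. The promoter rank difference between TPA and ZnCl2 was 19.0 points (limma, SE 9.49, adjusted p = 0.217), and ran from 9.50 points without TPA replicate 2 to 28.2 points without TPA replicate 1.

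RAD21, on chromosome 8, is the kleisin that closes the ring. Its region exceeded 83.3% and 95.1% of the regions in Ctrl, 82.9% and 96.8% in TPA, and 76.3% and 70.6% in ZnCl2. Both ZnCl2 libraries were below all 4 others, where 13.3% of all genes had both below Ctrl and 21.5% both below TPA. The share with both orders was not counted. The promoter rank passed limma's test neither against TPA (33.3 points higher in TPA, SE 12.6, adjusted p = 0.114) nor against Ctrl (-30.4 points, adjusted p = 0.430). The difference from Ctrl was -19.5 points without ZnCl2 replicate 1 and -37.5 without ZnCl2 replicate 2. Against ZnCl2 the TPA difference was called by limma with a replicate block (33.3 points, adjusted p = 0.0468) and with normal scores of the rank (adjusted p = 0.0375), and with 1 library left out it ran from 18.0 to 48.2 points without a call. RAD21, SMC1A and SMC3 were the 3 of 8 tested members with both TPA libraries above both ZnCl2 libraries, the order seen at 21.5% of all genes. The reverse order was seen at 17.8% of all genes and in 1 of 8 tested members, CTCF.

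STAG1 and STAG2, the alternative adaptor subunits, stood at opposite ends of the ring subunits. STAG1, at chr3:136336236-136752403, exceeded 97.8% and 99.1% of the regions in Ctrl, 98.4% and 98.6% in TPA, and 99.0% and 96.8% in ZnCl2, with all groups overlapping. Its promoter rank differed by -0.0842 points between TPA and Ctrl (limma, 95% interval -3.71 to 3.54, adjusted p = 0.984) and by -0.267 points between ZnCl2 and Ctrl (limma, 95% interval -3.89 to 3.36, adjusted p = 0.972), the narrowest intervals of the set. STAG1 and ZNF143 had the highest start-site regions of the members in the TPA libraries and the Ctrl libraries, whereas in ZnCl2 CTCF lay above ZNF143 in both libraries. The ranges of STAG1 (96.8% to 99.1%) and ZNF143 (94.4% to 98.6%) overlapped.

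STAG2, at chrX:123960212-124422664, was open at its canonical start in 4 of 6 libraries. There it exceeded 47.0% of the regions in Ctrl replicate 2, 28.5% and 32.2% in TPA, and 53.8% in ZnCl2 replicate 1. In Ctrl replicate 1 and ZnCl2 replicate 2, the shortest lists, only a separate region from 1095 to 1634 bp and from 885 to 2154 bp after the start was called, and this downstream region was present in all 6 libraries. STAG2 was not tested, because its start was not open in every library.

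NIPBL, the loader, had a broad but low-scoring region. At chr5:36876769-37066413, its start-site region was 3090 and 4350 bp wide in Ctrl, 4160 and 4060 bp in TPA, and 4490 and 4350 bp in ZnCl2. The scores exceeded 9.08% and 65.7% of the regions in Ctrl, 30.8% and 25.7% in TPA, and 34.5% and 0% in ZnCl2, where 0% is the lowest score of the list. The groups overlapped in percentile, and the limma adjusted p of the promoter rank was 0.967 for TPA and 0.768 for ZnCl2 against Ctrl. The promoter rank of NIPBL was at most 8.77% in any library, the lowest of the 8 tested members in each.

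WAPL, which opens the ring, lies at chr10:86435256-86521792. Its start-site region exceeded 56.8% and 92.2% of the regions in Ctrl, 87.4% and 88.8% in TPA, and 89.5% and 66.6% in ZnCl2. TPA lay within the range of both other groups, and the limma adjusted p of the promoter rank was 0.457 for TPA (20.0 points, 95% interval -11.6 to 51.6) and 0.860 for ZnCl2 (8.45 points, 95% interval -23.1 to 40.0) against Ctrl. Without Ctrl replicate 1 the differences from Ctrl were -0.639 points for TPA and -12.0 points for ZnCl2, and without Ctrl replicate 2 they were 40.7 and 29.1 points. Without ZnCl2 replicate 1 that of ZnCl2 was -0.0694 points. Its region was narrower in TPA (1930 and 1770 bp) than in Ctrl (2250 and 3270 bp) and ZnCl2 (2510 and 2020 bp) without overlap, orders seen at 16.7% and 55.0% of all genes.

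**Figure D3:**
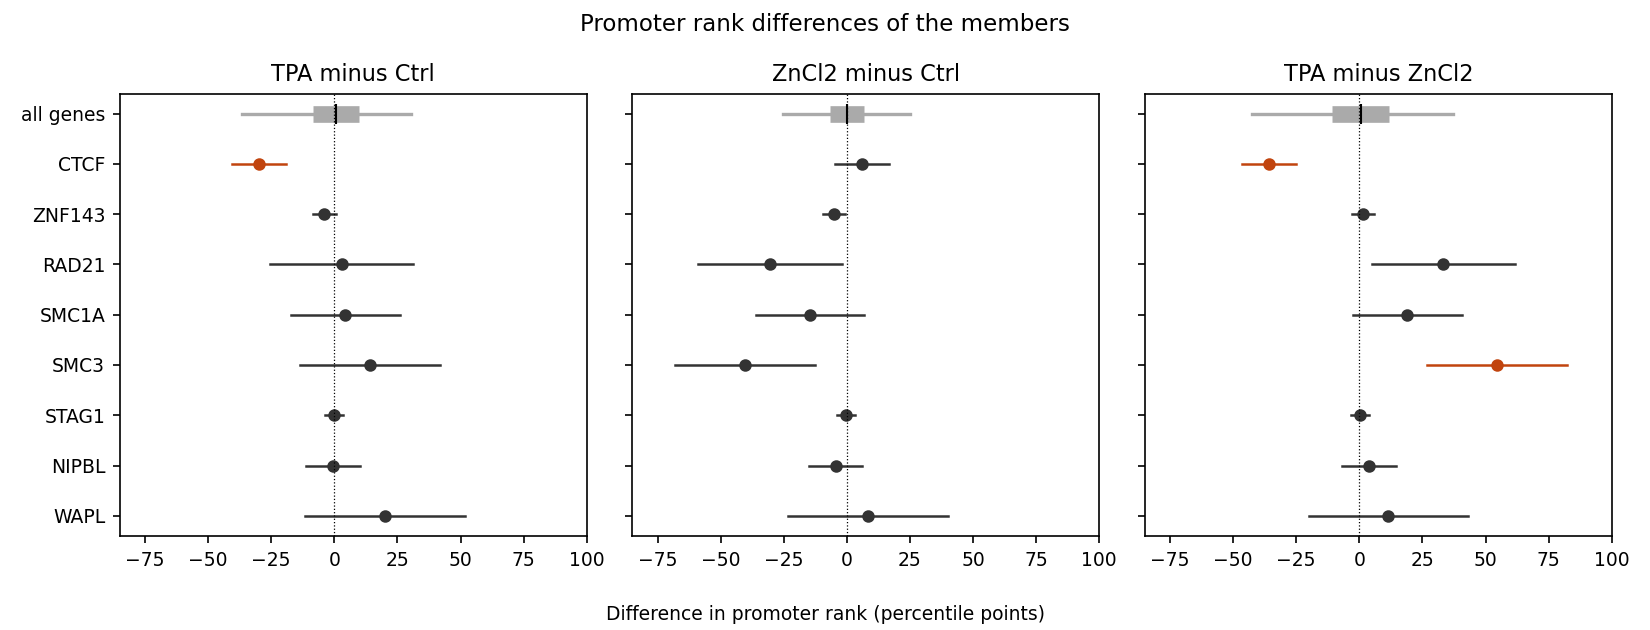
Difference in promoter rank (horizontal axis, percentile points) for the 8 tested members with 95% intervals from limma, in 3 panels; orange marks an adjusted p under 0.05, and the grey bar gives the middle 50% and the grey line the middle 95% of all 8610 genes. CTCF lies at -29.8 in TPA minus Ctrl and -35.8 in TPA minus ZnCl2, and SMC3 lies at 54.5 in TPA minus ZnCl2.

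Over the members together, few passed the test. Of 8 tested, 1 was lower (CTCF, beside 2.01% of all genes) and 0 higher (0.523%) in TPA than in Ctrl, 1 was lower (CTCF, 6.30%) and 1 higher (SMC3, 4.31%) in TPA than in ZnCl2, and 0 passed limma's test between ZnCl2 and Ctrl. At an unadjusted p under 0.05 there were 1 of 8 in TPA against Ctrl (CTCF), 3 in ZnCl2 against Ctrl (ZNF143, RAD21 and SMC3) and 3 in TPA against ZnCl2 (CTCF, RAD21 and SMC3), where all genes had 20.6% (1771 of 8610), 10.9% (942) and 29.8% (2563). The median promoter rank difference was 1.41 points in TPA against Ctrl (0.714 over all genes), -4.83 points in ZnCl2 against Ctrl (0.125 over all genes) and 7.74 points in TPA against ZnCl2 (0.479 over all genes). The 3 comparisons share libraries and are not independent of each other.

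In whole-list percentile, CTCF and ZNF143 were lower in TPA than in Ctrl without overlap (23.8% of all genes) and 0 of 8 were higher (10.3%). CTCF was narrowly higher in ZnCl2 than in Ctrl (2.54% of all genes), with 96.5% in ZnCl2 replicate 2 and 96.2% in Ctrl replicate 1. ZNF143 and RAD21 were lower in ZnCl2 than in Ctrl (13.3%). In width, CTCF and WAPL were narrower in TPA than in Ctrl (16.7% of all genes) and 0 were wider (1.93%), ZNF143 was wider in ZnCl2 than in Ctrl (10.9%) and 0 were narrower (2.52%). ZNF143, SMC1A, NIPBL and WAPL were narrower in TPA than in ZnCl2, 4 of 8, an order seen at 55.0% of all genes, and 0 were wider (2.57%). With 2 libraries against 2, an exact permutation test of one gene cannot give a p below 0.333.

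Merged over the libraries, the 10 windows held 15 regions. Of these, 9 covered a start site in at least 1 library and were touched by a region in all 6 libraries, although at STAG2 this joined the start-site region to the separate downstream one, so that 8 start sites themselves were open in all 6. Of the other 6 merged regions, 0 were called in all 6 libraries. Over the series, 22.1% of the 23466 merged regions that lay in the window of a protein-coding gene without holding a protein-coding start site were called in all 6 libraries, and 70.1% of the 10925 that held one. The most frequent of the others was chr3:136343271-136345000, which overlaps an annotated exon of STAG1 at least 407378 bp after its start and was called in all libraries except Ctrl replicate 1. Within the STAG2 body, chrX:124063631-124064870 was called in Ctrl replicate 2 and TPA replicate 1, and chrX:124406071-124407180, which also lies in TENM1, was called in Ctrl replicate 2, both TPA libraries and ZnCl2 replicate 1. An intronic NIPBL region, chr5:36928901-36929430, was called in TPA replicate 2 only.

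The open share of the members' windows was 1.11% and 2.50% in Ctrl, 1.55% and 1.62% in TPA, and 1.72% and 1.50% in ZnCl2. Over the windows of all coding genes it was 2.46% and 5.96% in Ctrl, 3.36% and 4.75% in TPA, and 4.36% and 3.28% in ZnCl2. The 2 Ctrl libraries bracketed all treated libraries, so the treatments could not be separated from Ctrl by this measure.

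Most genes that act on cohesin were open at the start site. Of 10 genes for cohesin loading, release, acetylation and cleavage, 9 were open at the start site in all 6 libraries, where the share over all genes was 43.0%, and the exception was HDAC8, the SMC3 deacetylase, in 0. Of these 9, 0 passed limma's test in any comparison, and at an unadjusted p under 0.05 there were 0 in TPA against Ctrl, 0 in ZnCl2 against Ctrl and 1 in TPA against ZnCl2, beside 20.6%, 10.9% and 29.8% of all genes. Their largest promoter rank differences were those of ESCO1, an SMC3 acetyltransferase (-26.7 points, ZnCl2 against Ctrl, limma, adjusted p = 0.473), PDS5A (-24.9 points, TPA against ZnCl2, adjusted p = 0.190) and PDS5B (18.2 points, TPA against ZnCl2, adjusted p = 0.282), which are cohesin regulators that bind WAPL. All 10 genes of other SMC complexes were open in all 6 libraries. Of these, 0 passed limma's test, with 1, 1 and 3 at an unadjusted p under 0.05 in TPA against Ctrl, ZnCl2 against Ctrl and TPA against ZnCl2, again beside 20.6%, 10.9% and 29.8% of all genes. The largest differences were those of SMC4, a condensin ATPase (35.5 points, TPA against ZnCl2, limma, adjusted p = 0.0526), the condensin subunit NCAPD2 (24.4 points, TPA against ZnCl2, adjusted p = 0.0902) and SMC6 (22.5 points, TPA against ZnCl2, adjusted p = 0.230).

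The meiotic cohesin genes replace ring subunits in germ cells, and 1 of these 4 genes, STAG3, was open at the start site in all 6 libraries, with RAD21L1 open in 4 and SMC1B and REC8 in 0, where 43.0% of all genes were open in all 6 libraries and 36.8% in none. STAG3 exceeded 67.7% and 75.3% of the regions in Ctrl, 53.7% and 54.6% in TPA, and 76.3% and 62.1% in ZnCl2. Both TPA libraries were the lowest, where 23.8% of all genes tested had both below Ctrl and 17.8% both below ZnCl2. The share with both orders was not counted. STAG3 did not pass limma's test in TPA (-13.9 points against Ctrl, adjusted p = 0.442, and -19.5 points against ZnCl2, adjusted p = 0.200).

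Of the other factors of loops and insulation, YY1, LDB1, VEZF1, TOP2B and HCFC1 were open at the start site in all 6 libraries, as were 43.0% of all genes, and MAZ and PATZ1 in 3. MAZ was open in both Ctrl libraries, in neither TPA library and in ZnCl2 replicate 1. Its region exceeded only 20.4% of the regions in Ctrl replicate 1, and in Ctrl replicate 2 it was 8940 bp wide. Open in both Ctrl and neither TPA library were 0.560% of all genes, a share that counts the 43.0% open in all 6 libraries and the 36.8% open in none. PATZ1 was open in Ctrl replicate 2, TPA replicate 2 and ZnCl2 replicate 1. Of the 5 tested, 0 passed limma's test and 1 in each comparison had an unadjusted p under 0.05, where all genes had 20.6% in TPA against Ctrl, 10.9% in ZnCl2 against Ctrl and 29.8% in TPA against ZnCl2. The largest differences were those of LDB1, a bridging cofactor of looped enhancers (-29.6 points, TPA against Ctrl, limma, adjusted p = 0.155), TOP2B, a topoisomerase found at loop anchors (-27.0 points, ZnCl2 against Ctrl, adjusted p = 0.358), and HCFC1 (13.4 points, TPA against ZnCl2, adjusted p = 0.431).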

How the data were processed

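ATAC-seq was measured in 6 MCF10A libraries, 2 per group. Read quality was checked by the authors with FastQC 0.11.8, adapters were removed with BBDuk, and the paired reads were aligned with HISAT2 2.1.0 to hg38 and indexed with SAMtools 1.8. HMMRATAC (version not given in the sources used here) then called open regions in each library, whose sequencing runs had been combined. The deposited lists give each region's position and a whole-number score, used here only as a rank within a list. Contigs other than chromosomes 1 to 22, X and Y were dropped.

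Start sites were those of the Ensembl canonical transcripts in GENCODE release 44, and a gene was open where a region covered its start site. Promoter ranks of the 8610 genes open in all 6 libraries were fitted with limma 3.58.1 in R 4.3.3 (group means, mean-variance trend, Benjamini-Hochberg adjustment, threshold 0.05). All members were named, with at most the 3 genes of each list that had the largest absolute difference and the 3 genes most like CTCF. Other genes named were chosen after their values were seen. Members and lists were chosen with earlier results of these data known. A gene of one list is not reported here. Alternatives were other rank scales, start sites, score thresholds, windows and overlaps, a replicate block and leaving out each library.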

Additional observations from a re-analysis of the deposited data

Results flagged for a closer look

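The promoter rank of CTCF was -35.8 points in TPA relative to ZnCl2 (limma, adjusted p = 0.0125). In whole-list percentile, both TPA libraries were below both Ctrl libraries (23.8% of all genes). Both ZnCl2 libraries were above both Ctrl libraries (2.54%), but narrowly, with 96.5% in ZnCl2 replicate 2 and 96.2% in Ctrl replicate 1. The promoter rank of CTCF did not pass the test between ZnCl2 and Ctrl (limma, 6.00 points, adjusted p = 0.675). The promoter rank of SMC3 was 54.5 points in TPA relative to ZnCl2 (limma, adjusted p = 0.0294). Each was singled out because the effects of the 2 treatments differed by a direct test. Beside them stand the list lengths, shortest in ZnCl2 replicate 2 and longest in Ctrl replicate 2. With each list held to its 18887 highest-scoring regions, the differences were -45.4 points for CTCF (limma, adjusted p = 0.0160) and 51.9 points for SMC3 (adjusted p = 0.0426). In whole-list percentile, they were -13.9 points for CTCF (limma, adjusted p = 0.00485) and 44.4 points for SMC3 (adjusted p = 0.222). Those 2 p-values used the spread of the trend over all genes, not that of each gene. The SMC3 call was lost without any 1 of the 4 libraries compared (limma, adjusted p = 0.0723 to 0.152), and the CTCF call without ZnCl2 replicate 1 (0.0846) or 2 (0.0948).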

How the results depend on the processing

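The numbers of genes called by limma moved with the settings. In TPA against Ctrl the 218 calls became 139 with an equal number of regions, 104 with no mean-variance trend, 64 in the upper 50% by score, 42 with the whole-list percentile and 503 with normal scores (chosen after seeing the data), and 0 to 173 with 1 library left out, 0 without either Ctrl or either ZnCl2 library. In TPA against ZnCl2 the 913 calls became 473 with an equal number of regions, 353 in the upper 50%, 82 with the whole-list percentile and 1389 with normal scores, and 0 to 828 with 1 library left out, 4 without ZnCl2 replicate 1 and 0 without ZnCl2 replicate 2. In ZnCl2 against Ctrl the 0 calls became 2 with the whole-list percentile and 7 with normal scores. The whole-list calls in TPA against Ctrl were 42 lower and 0 higher, against 173 lower and 45 higher by promoter rank. The whole-list fit used the spread of the trend over all genes and not that of each gene. A group left with 1 library was assumed to vary like the others.

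Of 303 member values under other settings, 274 kept direction and side of the threshold, 12 lost a call, 2 gained one and 15 changed sign, none of these a called difference. Changes of sign in TPA against Ctrl were STAG1 with the whole-list percentile (0.0585 points) and NIPBL with normal scores (0.0347 units), and, with 1 library left out, differences that ran from -12.3 to 18.0 points for RAD21, -5.05 to 13.7 for SMC1A, -0.752 to 29.3 for SMC3, -0.727 to 0.545 for STAG1, -4.80 to 3.10 for NIPBL and -0.639 to 40.7 for WAPL. In ZnCl2 against Ctrl they ran from -1.43 to 0.820 for STAG1 and -12.0 to 29.1 for WAPL, and in TPA against ZnCl2 from -0.895 to 1.34 for STAG1. The causes were not tested.

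The difference in open share of the windows between TPA and ZnCl2 (-0.0252 percentage points) became -0.467 with 50 kb flanks, -0.402 with an equal number of regions and -0.154 in the upper 50%, and ran from -0.135 to 0.0842 with 1 library left out, above 0 without TPA replicate 1 (0.0085) or ZnCl2 replicate 1; without Ctrl replicate 2 the differences from Ctrl turned to 0.474 for TPA and 0.499 for ZnCl2. Members open in both libraries stayed at 6 to 9 of 10 per group. Merged regions touched in all 6 libraries fell from 9 to 5 when 50% of the merged region had to be open (chosen after seeing the data). Deviations in promoter rank of same-numbered libraries had correlations of 0.108 (Ctrl and TPA), 0.0234 (Ctrl and ZnCl2) and 0.0273 (TPA and ZnCl2). A rank within a library cannot show a shift of the whole library, and whether same-numbered libraries shared a batch was not tested. With a replicate block, limma called 243, 0 and 1024 genes in TPA against Ctrl, ZnCl2 against Ctrl and TPA against ZnCl2, and RAD21 was called in the last (33.3 points, adjusted p = 0.0468), as with normal scores (adjusted p = 0.0375); the block changed no other member call. Depth is unknown and limits each score to a rank.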
